A study of Mus musculus with 12 samples.

Results

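Expression of 10 transcription factors that control the formation of fat cells was examined in mouse 10T1/2 cells: Pparg, Cebpa, Cebpb, Cebpd, Ebf1, Ebf2, Zfp423, Klf15, Klf4 and Klf9. They were taken by gene name, with no threshold on a measured value, and all 10 were among the 56748 genes of the count table. The cells (C3H10T1/2, an established mesenchymal line, spelled CH310T1/2 in the labels and given there as mesenchymal stem cells of WT genotype) were used in 3 groups of 4 libraries each, 12 in all. All cells were starved of serum, held in suspension for 1 h and then kept for 18 h on a gel of 12 kPa that carried type I collagen (0.05 mg/mL). The study's methods give 0.5% serum for the medium on the gel. The coating was collagen alone in col1. In col1-ACLP it also held recombinant ACLP (aortic carboxypeptidase-like protein, a secreted matrix protein) at 30 nM, present while the collagen polymerized. The cells of col1-ACLP+SB received the same ACLP coating and SB431542, an inhibitor of the TGFb receptor kinase ALK5. No group had the inhibitor on collagen alone, so an action of the inhibitor by itself cannot be told apart from its action on the response to ACLP. The libraries of a group are given as biological replicates of a single cell line, so the spread between them is that of cultures and not of animals.

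A mesenchymal precursor becomes a fat cell through a cascade of these factors. C/EBPb and C/EBPd (Cebpb, Cebpd) act first, and they switch on PPARg (Pparg), the nuclear receptor that fat cells cannot form without, and C/EBPa (Cebpa), which keeps the fat cell program running. EBF1, EBF2 and the zinc finger protein ZFP423 act in precursors, where they promote Pparg expression and mark cells committed to the fat lineage. Among the Krüppel-like factors, KLF4 acts at the start of the cascade, KLF9 and KLF15 act later on Pparg, and KLF15 is induced by glucocorticoids.

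Libraries held from 29246154 to 52201922 counts, and 16465 genes passed the filter on low counts, all 10 factors among them. Levels are given as CPM (counts scaled to library size with TMM factors), and as FPKM (the same per kilobase of the gene length in the table) where genes are compared. The labelled cell type was checked against markers: all 13 mesenchymal markers were tested. Their sum was 25800 to 26700 CPM on col1, 35500 to 43800 CPM on col1-ACLP and 32500 to 37900 CPM on col1-ACLP+SB, mostly from Col1a1 and Col1a2. Without these collagen genes the sum ran the other way, from 6840 to 7120 CPM on col1, from 6230 to 6580 CPM on col1-ACLP and from 6310 to 6580 CPM with the inhibitor. Of the other 11 markers, 5 were lower on col1-ACLP (Pdgfra, Pdgfrb, Prrx1, Twist1 and S100a4, adjusted p-value under 0.05 by edgeR), and 3 had a higher mean on col1-ACLP that did not pass this test. Of 10 markers of mature fat cells 2 were tested, and Plin1, Cidec and Cfd stayed under 0.1 CPM in every library. The sum of the 10 ran from 14.6 to 19.2 CPM on col1, from 7.75 to 10.2 CPM on col1-ACLP and from 10.0 to 13.8 CPM on col1-ACLP+SB, carried mostly by Lipe. The sum of 8 cartilage and bone markers ran the other way, with 1430 to 1620, 3570 to 4670 and 2890 to 3450 CPM in the same order, mostly from Col2a1, while Acan and Ibsp stayed under 0.1 CPM. Sox9 also had a higher mean on col1-ACLP than on col1 (645 and 534 CPM), and Runx2 had a lower one (92.2 and 102 CPM). Sp7, Bglap and Alpl stayed at 0.9 CPM or less in every library. For 8 leukocyte markers the sums were 18.9 to 22.3, 13.9 to 16.4 and 15.9 to 21.3 CPM, mostly from Cd14 and Cd68, with Adgre1 and Tyrobp under 0.1 CPM. For 7 endothelial markers they were 5.14 to 9.4, 8.82 to 11.5 and 5.17 to 7.89 CPM, mostly from Tek, with Kdr and Cldn5 under 0.1 CPM, so that col1-ACLP lay above col1-ACLP+SB without overlap and overlapped with col1. The sums of 6 epithelial and 6 muscle markers stayed under 5 CPM and overlapped between all groups. The sums of mesenchymal, of fat cell, and of cartilage and bone markers separated col1 from both ACLP groups without overlap. The leukocyte sum separated col1 from col1-ACLP alone, and the endothelial sum only the ACLP groups from each other. Pparg and Ebf1 differed between col1 and both ACLP groups, and Cebpb and Klf15 between col1 and col1-ACLP. The part of the marker sets in those results was not tested. On the leading principal component the score of col1 replicate 2 was -86.7, against -11.1 to -8.97 in the rest of its group, so the differences below were also computed without it. In RNA of whole cultures, fewer cells that express a gene and less RNA of it per cell cannot be told apart.

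The 10 factors covered a wide range of levels, from Klf4 at 87.9 FPKM down to Ebf2 at 0.195 FPKM as means of 12 libraries. Klf4 was followed by Cebpb (63.1 FPKM), Cebpd (32.8 FPKM) and Ebf1 (14.4 FPKM), and the libraries of these 4 did not overlap from one to the next. Pparg came next at 6.85 FPKM, ahead of Cebpa at 4.84 FPKM and Klf9 at 3.99 FPKM. Over the 12 libraries Pparg overlapped with Cebpa, and Cebpa with Klf9. Within groups, Pparg lay above Cebpa without overlap on col1 (9.15 and 5.34 FPKM) and on col1-ACLP (5.93 and 4.34 FPKM), and they overlapped with the inhibitor (5.49 and 4.84 FPKM). Cebpa lay above Klf9 (3.77 FPKM) without overlap on col1, and they overlapped in both ACLP groups. Among all tested genes, Klf4 and Cebpb exceeded 97.5% and 96.2% of genes, Pparg 62.0% and Cebpa 54.4%. Klf15 (0.642 FPKM), Zfp423 (0.40 FPKM) and Ebf2 (0.195 FPKM) closed the list, each overlapping with the next over the 12 libraries. The order held in all groups but for Klf15. On col1, Klf15 (0.295 FPKM) lay under Zfp423 (0.471 FPKM) with overlapping libraries. On col1-ACLP, Klf15 stood at 1.01 FPKM and above Zfp423 at 0.366 FPKM, with no overlap. With the inhibitor it stood at 0.621 FPKM, and it overlapped with Zfp423 again.

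**Figure D1:**
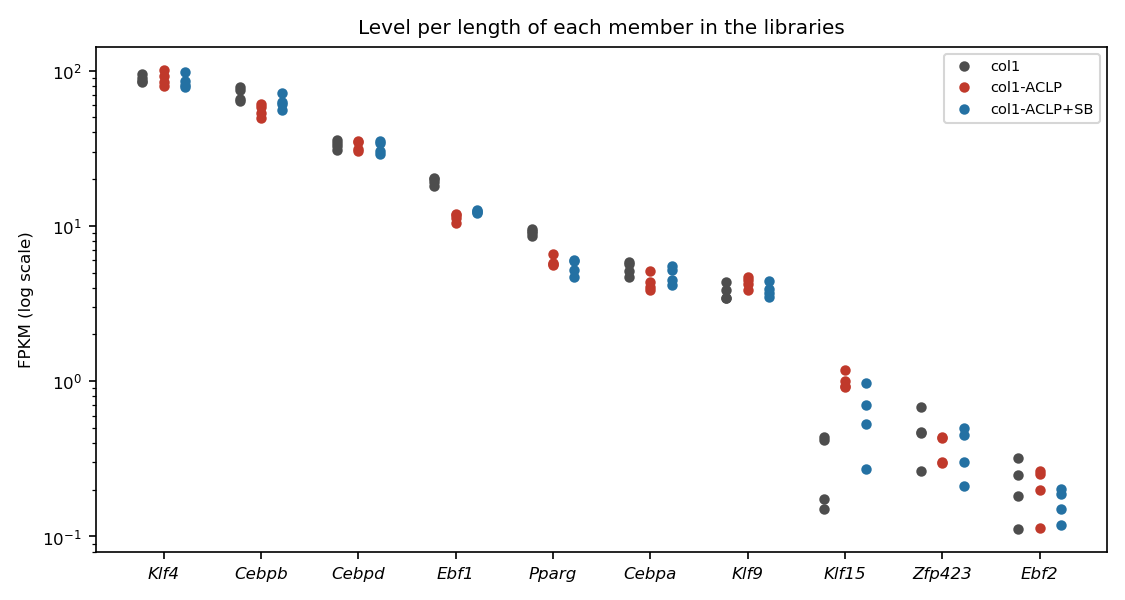
Level per length (FPKM, log scale) of the 10 factors, in order of their mean. Each point is 1 library, with 4 libraries for each of col1 (grey), col1-ACLP (red) and col1-ACLP+SB (blue). Ebf1 and Pparg sit lower in both ACLP groups, and Klf15 moves from under Zfp423 on col1 to above it on col1-ACLP.

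Promoter sequences of the 4 factors that differed between groups are shown, because these genes moved together or apart in the comparisons that follow. They come from RefSeq on GRCm38.p6, while the positions of the genes in the count table are on GRCm39. Each begins 250 bases before an annotated transcript start and ends 30 bases after it. RefSeq windows were matched for 8 of the 10 factors, 12 windows in all. Capitals mark matches, on either strand, to the CCAAT box (CCAAT), the GC box (GGGCGG), the TATA box (TATAAA), the E-box (CACGTG) or a C/EBP motif (TTNNGNAA), and overlapping matches were counted apart. Pparg has separate starts for its 2 protein forms. Of its 3 windows the first and the last are printed, and of the 2 of Ebf1 the first. The upstream start at chr6:115360894-115361173 serves PPARG1 and the one at chr6:115421816-115422095 serves PPARG2, the form typical of fat cells. Ebf1 is shown at chr11:44617850-44618129, Cebpb at chr2:167688665-167688944 and Klf15 at chr6:90462326-90462605, all on the plus strand.
Pparg upstream start: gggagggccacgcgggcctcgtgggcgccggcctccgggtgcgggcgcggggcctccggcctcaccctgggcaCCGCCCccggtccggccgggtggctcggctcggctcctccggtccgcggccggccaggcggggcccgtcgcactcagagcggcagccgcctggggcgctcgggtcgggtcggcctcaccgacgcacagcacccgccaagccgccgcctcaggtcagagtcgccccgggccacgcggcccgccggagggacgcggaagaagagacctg
Pparg PPARG2 start: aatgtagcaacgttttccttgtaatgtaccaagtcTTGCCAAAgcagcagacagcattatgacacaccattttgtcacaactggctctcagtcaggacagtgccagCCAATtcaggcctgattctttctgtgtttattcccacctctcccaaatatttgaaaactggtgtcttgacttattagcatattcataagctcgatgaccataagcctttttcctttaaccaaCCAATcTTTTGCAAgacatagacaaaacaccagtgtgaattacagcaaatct
Ebf1: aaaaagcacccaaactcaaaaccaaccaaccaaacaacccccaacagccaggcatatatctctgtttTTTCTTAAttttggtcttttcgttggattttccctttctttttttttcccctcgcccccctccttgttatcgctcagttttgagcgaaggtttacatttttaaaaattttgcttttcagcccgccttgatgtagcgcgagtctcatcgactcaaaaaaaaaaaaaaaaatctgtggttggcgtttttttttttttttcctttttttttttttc
Cebpb: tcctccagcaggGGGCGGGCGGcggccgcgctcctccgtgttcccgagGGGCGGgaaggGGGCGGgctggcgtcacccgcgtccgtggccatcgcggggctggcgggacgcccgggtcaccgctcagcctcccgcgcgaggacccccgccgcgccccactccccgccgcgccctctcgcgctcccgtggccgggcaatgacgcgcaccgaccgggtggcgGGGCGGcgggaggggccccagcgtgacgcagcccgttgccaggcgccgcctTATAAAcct
Klf15: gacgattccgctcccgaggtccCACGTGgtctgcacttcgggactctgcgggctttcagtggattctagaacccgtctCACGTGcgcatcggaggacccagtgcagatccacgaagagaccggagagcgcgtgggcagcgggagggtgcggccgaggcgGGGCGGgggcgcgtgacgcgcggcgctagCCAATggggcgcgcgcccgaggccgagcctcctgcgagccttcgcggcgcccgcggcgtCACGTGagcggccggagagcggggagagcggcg
The Pparg starts differ in composition: the upstream window of 300 bases was 80.3% G and C and the PPARG2 window 40.3%, against a median of 52.7% over 32851 RefSeq windows of the same length. The PPARG2 window held 2 CCAAT boxes and 2 C/EBP motifs, one of these 16 bases before the start, and no GC box. The upstream window held a GC box and no C/EBP motif. The Pparg window between them, with 62.7% G and C, held a CCAAT box, 2 GC boxes and a TATA box. The printed Ebf1 window held 1 C/EBP motif, in a stretch with 36.7% G and C, while the other Ebf1 window had 53.0% and no match. The Cebpb window held 5 GC boxes and a TATA box that begins 22 bases after the RefSeq start. The Klf15 window held 3 E-boxes, a CCAAT box and a GC box. Among all windows 0.0883% held 3 or more E-boxes, 10.7% 3 or more GC boxes and 3.37% 3 or more CCAAT boxes. These shares were not matched for G and C, which made up 73.3% of the Klf15 window. Of all windows, 37.4% held a CCAAT box, 35.7% a GC box, 13.6% a TATA box, 7.15% an E-box and 40.7% a C/EBP motif. Over the 12 windows of the factors, these motifs were matched in 4, 7, 3, 2 and 4 windows. Motifs of AP-1 (TGANTCA) were found in 1 of the 12. The CArG box, a TEAD motif (GGAATG), the core of the glucocorticoid receptor site (ACANNNTGT) and a palindromic EBF motif were found in 0 of them. Among all windows these 5 were held by 7.81%, 1.63%, 14.7%, 6.85% and 0.904%. A match describes the letters and is not a measured binding site.

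The comparison of col1-ACLP with col1 asked how the factors differed when ACLP was part of the collagen. Pparg, Ebf1 and Cebpb were lower on col1-ACLP, Klf15 was higher, and 6 factors were not called. A gene was called at an adjusted p-value under 0.05 in the quasi-likelihood test of edgeR, adjusted by Benjamini-Hochberg over all 16465 genes. The 1 factor higher and 3 lower of 10 stand beside 9.52% and 8.41% of all tested genes. When a log2 fold change beyond 0.58 was asked for as well, 1 factor was higher (Klf15) and 2 were lower (Ebf1, Pparg), beside 2.61% and 2.36% of all genes. The 4 libraries of one group all lay above the 4 of the other in those 4 called factors, and in 21.2% of all genes in either direction. Before adjustment 5 of the 10 factors had a p-value under 0.05 in edgeR, the 4 called ones and Cebpa, beside 4661 of the 16465 genes. The median log2 fold change was -0.18 over the 10 factors and -0.0099 over all genes. With scaling by library size alone, the share of higher genes among all calls moved from 53.1% to 38.3% and the median over all genes to -0.060, and the 4 calls remained.

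Between col1-ACLP+SB and col1, 2 factors were lower and 0 higher by edgeR. The lower ones were Pparg and Ebf1, both beyond the fold threshold. Among all genes, 4.54% were lower and 4.6% higher, and with the fold threshold 1.01% lower and 1.27% higher. Pparg and Ebf1 were also the 2 factors whose groups did not overlap, beside 13.0% of all genes. DESeq2 and limma-voom also called 0 higher. Of the 10 factors 4 had an unadjusted p-value under 0.05 here in edgeR, beside 3278 of the 16465 tested genes. Klf15 was among the 4, with the highest estimate (1.07). The comparisons of both ACLP groups with col1 use the same 4 col1 libraries, so they are not independent of each other.

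Between col1-ACLP+SB and col1-ACLP, which asked what the inhibitor changed on the ACLP coating, 0 of the 10 factors were called by edgeR, and by limma-voom likewise 0. DESeq2 also called 0, but it gave an adjusted p-value for 8 of the 10 and none for Klf15 and Ebf2. In all, 1.48% of tested genes (243) were called, 94 higher and 149 lower. With scaling by library size alone these were 157 higher and 109 lower. Before adjustment 2 factors had a p-value under 0.05 in edgeR, beside 2111 of the 16465 tested genes. They were Cebpb with a log2 fold change of 0.18 (95% interval 0.019 to 0.34) and Ebf1 with 0.12 (0.0062 to 0.23). Both estimates leaned on single libraries: that of Cebpb was 0.11 without col1-ACLP+SB replicate 2, and that of Ebf1 was 0.077 without col1-ACLP replicate 4. Ebf1 was the 1 factor whose groups did not overlap, beside 8.17% of all genes. The intervals of the log2 difference were from -0.31 to 0.095 for Pparg and from -1.50 to 0.092 for Klf15, the wider one resting on fewer counts.

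**Figure D2:**
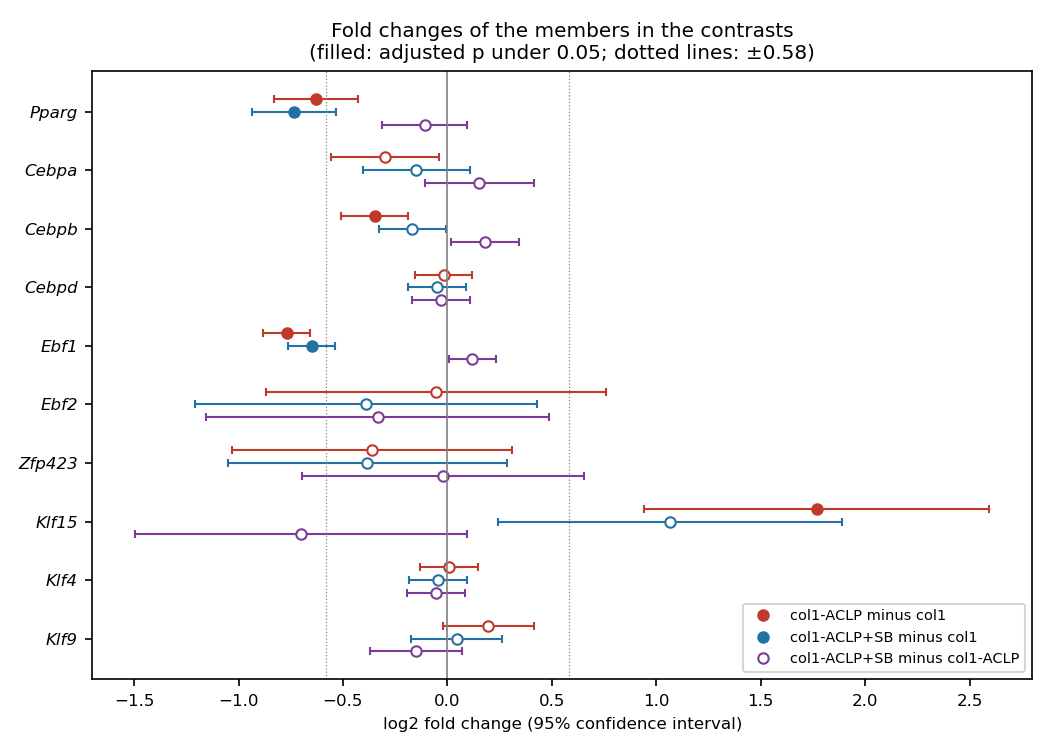
log2 fold changes of the 10 factors (x axis) in the 3 contrasts, with 95% confidence intervals from the edgeR fit of 12 libraries. Filled points had an adjusted p-value under 0.05, and dotted lines mark a log2 fold change of 0.58 in either direction. Pparg and Ebf1 lie left of zero in both contrasts with col1, Klf15 lies furthest right, and Ebf2, Zfp423 and Klf15 have the widest intervals.

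Pparg (ENSMUSG00000000440, chromosome 6 from 115337912 to 115467360 of GRCm39, plus strand) encodes the receptor that stands at the centre of the cascade. On col1 its 4 libraries held 27.6, 28.2, 25.6 and 26.7 CPM. On col1-ACLP they held 17.0, 16.7, 19.6 and 16.8 CPM, and with the inhibitor 13.9, 15.5, 17.8 and 17.7 CPM. Every col1 library lay above every library of the ACLP groups, while the ACLP groups overlapped with each other. The mean was 27.0 ± 1.15 CPM on col1 (SD, n = 4), 17.5 ± 1.41 CPM on col1-ACLP and 16.2 ± 1.87 CPM on col1-ACLP+SB. Pparg was 1.54-fold lower on col1-ACLP than on col1 (log2 fold change -0.63, SE 0.0975, adjusted p = 2.95e-05 by edgeR). It was 1.67-fold lower on col1-ACLP+SB (-0.74, SE 0.0975, adjusted p = 5.73e-06). Without col1 replicate 2 the log2 fold changes were -0.60 and -0.71. The annotation lists 42 transcripts of Pparg from 30 start sites, and the counts pool them, so PPARG1 and PPARG2 are not separated in these values.

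Among the C/EBP genes, Cebpb was called lower on col1-ACLP, Cebpa had an estimate of similar size that did not pass the adjustment, and the estimate of Cebpd was close to 0. Cebpb (ENSMUSG00000056501, chromosome 2 from 167530835 to 167532338, plus strand) encodes the early activator of the cascade. Its col1 libraries held 96.4, 117, 98.9 and 113 CPM, its col1-ACLP libraries 87.6, 74.8, 80.1 and 92.1 CPM, and those with the inhibitor 84.1, 109, 92.4 and 93.9 CPM. All col1-ACLP libraries lay under all col1 libraries, with 92.1 and 96.4 CPM as the nearest values. The group with the inhibitor overlapped with both. Cebpb was 1.27-fold lower on col1-ACLP (106 ± 10.4 and 83.7 ± 7.7 CPM, log2 fold change -0.35, SE 0.0779, adjusted p = 0.00189 by edgeR), within the fold threshold. Without col1 replicate 2, the highest of the col1 libraries, the log2 fold change was -0.30 (adjusted p = 0.0112). For col1-ACLP+SB it was -0.17 (adjusted p = 0.218). Cebpb shares 908 bases with Peds1, a gene on the opposite strand. Whether reads were counted by strand is not given in the sources used here. Peds1 itself held 83.0, 82.5 and 78.9 CPM in the 3 groups, with a log2 fold change of -0.0077 on col1-ACLP (adjusted p = 0.958).

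Cebpa (ENSMUSG00000034957, chromosome 7 from 34818718 to 34821353) encodes the factor that maintains the mature fat cell. It held 13.4, 15.5, 12.4 and 15.0 on col1, 10.7, 11.4, 10.2 and 13.5 on col1-ACLP, and 11.9, 14.5, 10.9 and 13.7 CPM with the inhibitor. All groups overlapped. Against col1 the log2 fold change was -0.30 on col1-ACLP (95% interval -0.56 to -0.042, unadjusted p = 0.0244 and adjusted p = 0.106 by edgeR). With the inhibitor it was -0.15 (adjusted p = 0.586), and -0.078 without col1-ACLP+SB replicate 3. Cebpd (ENSMUSG00000071637, chromosome 16 from 15705150 to 15708895), the partner of Cebpb in the early step, ranged from 109 to 135 CPM over the 12 libraries, and its group means were 125 ± 8.39, 123 ± 9.52 and 121 ± 11.0 CPM. Its log2 fold changes lay between -0.049 and -0.018 in the 3 contrasts, with adjusted p-values of 0.77 or above. It shares 1809 bases with Spidr on the opposite strand, which was at 45.5, 45.1 and 43.8 CPM. Seen as shares of the summed FPKM of these 3 C/EBP genes, Cebpb made up 64.6% ± 0.774 on col1 (63.8 to 65.5%), 59.8% ± 1.84 on col1-ACLP (57.9 to 62.2%) and 62.9% ± 1.58 with the inhibitor (61.5 to 64.6%). Cebpd made up 30.5% ± 0.899, 35.5% ± 1.89 and 32.2% ± 1.95, and Cebpa between 4.68% and 4.88% as group means. Cebpb remained the most abundant of the 3 per length in every library.

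Ebf1 (ENSMUSG00000057098, chromosome 11 from 44508144 to 44898918, plus strand), a factor of early fat cell precursors and of B cells, differed with the smallest adjusted p-value of the 10. Its libraries held 175, 195, 187 and 200 on col1, 110, 117, 115 and 101 on col1-ACLP, and 120, 124, 118 and 122 CPM with the inhibitor. None of the 3 groups overlapped with another. Ebf1 was 1.70-fold lower on col1-ACLP (189 ± 10.9 and 111 ± 7.11 CPM, log2 fold change -0.77, SE 0.0548, adjusted p = 6.89e-11 by edgeR). It was 1.57-fold lower on col1-ACLP+SB (121 ± 2.56 CPM, log2 fold change -0.65, SE 0.0545, adjusted p = 3.42e-09). The difference between both ACLP groups was 0.12 (SE 0.0548) and did not pass the adjustment (adjusted p = 0.35). Without col1 replicate 2 the log2 fold changes against col1 were -0.75 and -0.63.

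Ebf2 and Zfp423 were detected at low levels, and their replicates differed far more than those of Ebf1. Ebf2 (ENSMUSG00000022053, chromosome 14 from 67470741 to 67668367), known for brown and beige fat precursors, had between 22 and 95 counts per library. It held 1.25, 0.768, 1.73 and 2.21 on col1, 1.83, 1.74, 1.37 and 0.78 on col1-ACLP, and 0.826, 1.04, 1.29 and 1.39 CPM with the inhibitor. Zfp423 (ENSMUSG00000045333, chromosome 8 from 88388438 to 88686223, minus strand), a marker of committed precursors, had 47 to 127 counts. Its libraries held 2.58, 1.48, 3.85 and 2.65 on col1, 1.68, 2.46, 2.40 and 1.67 on col1-ACLP, and 1.68, 2.79, 1.18 and 2.51 CPM with the inhibitor. All groups overlapped in both genes. The SD was 41.6% of the mean for Ebf2 and 36.7% for Zfp423 on col1, of which counting error alone gives 13.2% and 10.1%. The 95% intervals of the log2 difference between col1-ACLP and col1 ran from -0.87 to 0.76 for Ebf2 and from -1.03 to 0.31 for Zfp423, and both hold a change as large as that of Ebf1. Per length, Ebf1 made up 98.9%, 98.2% and 98.7% of the sum of Ebf1 and Ebf2 in the 3 groups.

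Klf15 (ENSMUSG00000030087, chromosome 6 from 90439558 to 90452220, plus strand), a glucocorticoid-induced activator of Pparg, was the 1 factor that rose. Its counts were 47, 44, 16 and 18 on col1, 84, 94, 84 and 93 on col1-ACLP, and 69, 81, 77 and 23 with the inhibitor. In CPM these were 1.23, 1.17, 0.486 and 0.418 on col1, 2.57, 2.60, 2.81 and 3.30 on col1-ACLP, and 1.97, 2.72, 1.49 and 0.761 with the inhibitor. All col1-ACLP libraries lay above all col1 libraries, and the col1 libraries fell into a higher and a lower pair. The libraries with the inhibitor spread from within the col1 range (replicate 4) to within the col1-ACLP range (replicate 2). Klf15 was 3.40-fold higher on col1-ACLP than on col1 (0.824 ± 0.431 and 2.82 ± 0.336 CPM, log2 fold change 1.77, SE 0.401, adjusted p = 0.00215 by edgeR, 95% interval 0.94 to 2.59). At 1.73 ± 0.823 CPM, the group with the inhibitor had a log2 fold change of 1.07 against col1 (adjusted p = 0.107) and of -0.70 against col1-ACLP (adjusted p = 0.478). Without col1-ACLP+SB replicate 4 these were 1.31 (adjusted p = 0.0353) and -0.46 (adjusted p = 0.732), so that 1 library decided the first call and moved the second estimate by over 1.5 times. Counting error was 14.6 to 25.0% of the value in single col1 libraries and covers counting alone. No annotated gene overlaps Klf15.

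Klf4 and Klf9 were not called in any contrast. Klf4 (ENSMUSG00000003032, chromosome 4 from 55527143 to 55532466, minus strand), an early activator of Cebpb and the most abundant of the 10, ranged from 240 to 307 CPM. Its group means were 270 ± 14.5, 272 ± 28.3 and 262 ± 25.7 CPM, with a 95% interval of the log2 difference between col1-ACLP and col1 from -0.13 to 0.15. Klf9 (ENSMUSG00000033863, chromosome 19 from 23118590 to 23145498), which acts in the middle of the cascade, held 16.4, 16.6, 18.5 and 21.0 on col1, 22.6, 18.5, 21.7 and 20.4 on col1-ACLP, and 16.8, 17.8, 21.4 and 18.8 CPM with the inhibitor. Its groups overlapped (log2 fold change 0.20 on col1-ACLP, adjusted p = 0.239 by edgeR). Klf15 made up 0.319% of the summed FPKM of these 3 KLF genes on col1, 1.07% on col1-ACLP and 0.672% with the inhibitor, against 94.3 to 95.6% for Klf4.

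**Figure D3:**
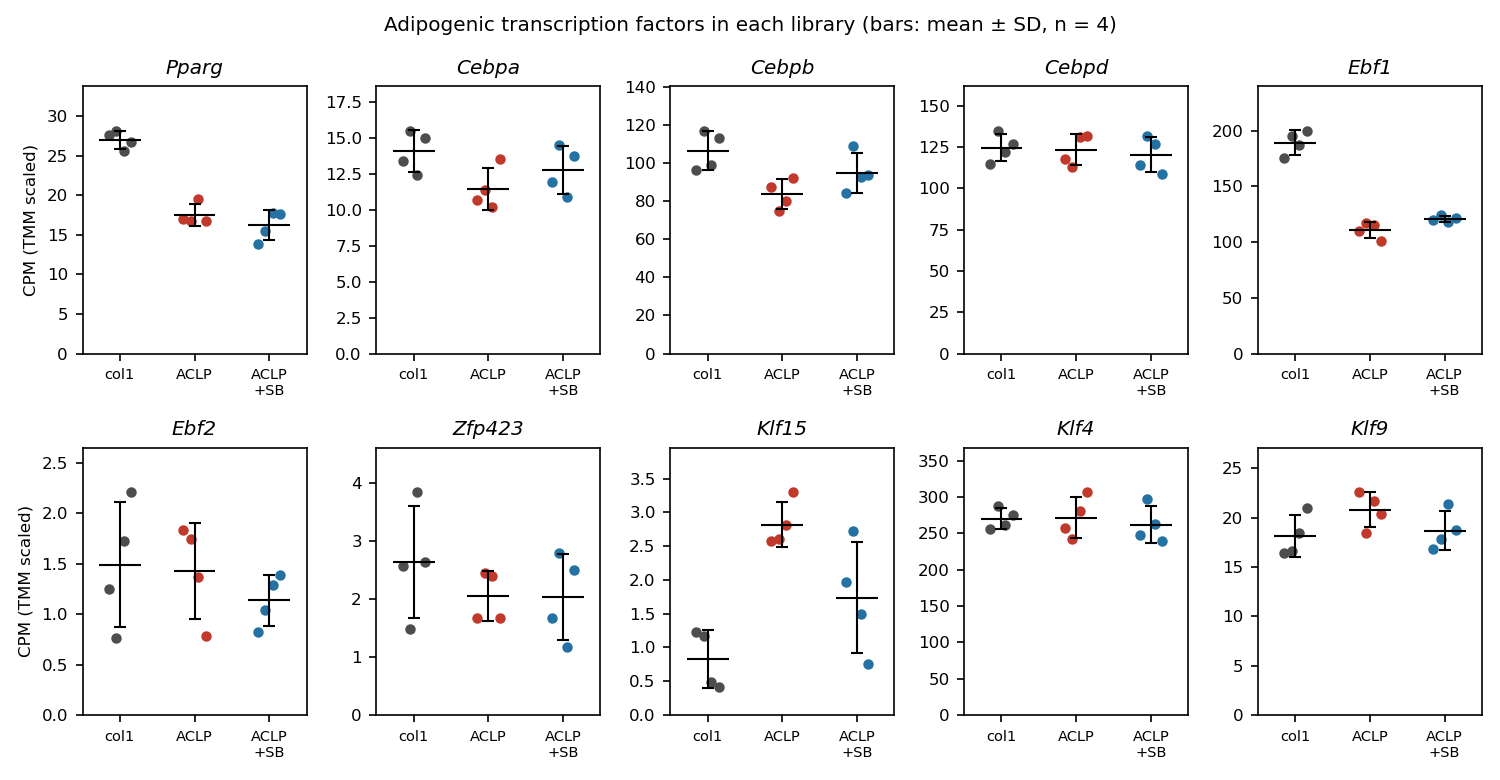
CPM of each factor (y axis, from 0, with a scale of its own in each panel) in the 12 libraries. Points are libraries, and bars give the mean and SD of 4. On col1, Pparg (25.6 to 28.2 CPM) and Ebf1 (175 to 200 CPM) lie above both ACLP groups, and Klf15 on col1-ACLP (2.57 to 3.30 CPM) lies above col1 (0.418 to 1.23 CPM).

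Correlations between the factors across the 12 libraries are given as descriptions, since the points share groups and libraries. Cebpd and Klf4, which did not differ between groups, rose and fell together from library to library, with Pearson's r of log2 CPM of 0.928, and of 0.929 for deviations from the group means. Pparg and Ebf1 had an r of 0.90 over the 12 libraries and of 0.104 within groups, so their likeness lay between the groups. For Cebpa and Cebpb the values were 0.838 and 0.705. Within groups Cebpb was also linked to Klf4 (r = 0.78) and Cebpd (0.686), so Cebpb, Cebpd and Klf4 varied together among replicates. Cebpa was less closely linked to Klf4 (0.512) and least to Cebpd (0.271). Ebf1 and Klf15 ran in opposite directions, with an r of -0.794 over the libraries and -0.293 within groups. For Ebf2 and Klf15, both low in counts, the r was -0.429 over the libraries and -0.708 within groups. In col1 replicate 2, Pparg, Cebpa, Cebpb, Cebpd and Klf4 were above the other col1 libraries, Ebf2 and Zfp423 were below, and Ebf1, Klf15 and Klf9 were within their range.

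**Figure D4:**
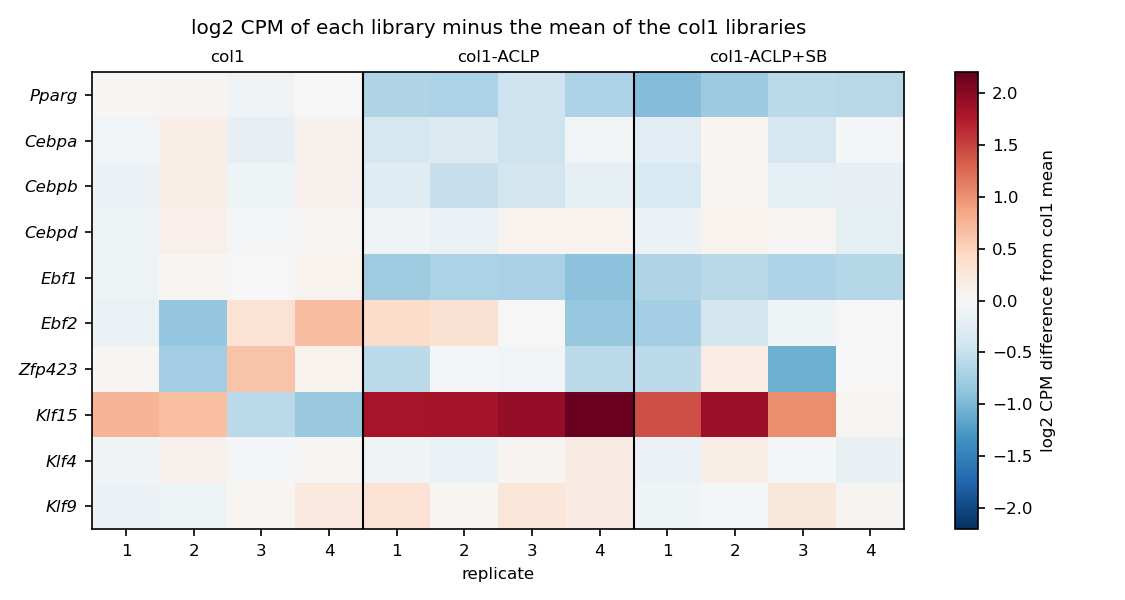
log2 CPM of each factor (rows) in each of the 12 libraries (columns, by group and replicate), minus the mean of the 4 col1 libraries. Red is higher and blue lower. Pparg and Ebf1 are blue in all 8 ACLP libraries. Klf15 is deep red in all col1-ACLP libraries and close to the col1 mean in col1-ACLP+SB replicate 4 (0.761 CPM). Ebf2 and Zfp423 vary within each group.

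The tested genes whose log2 CPM most resembled each called factor over the 12 libraries were also listed, 3 for each, by Pearson's r. For Ebf1 they were Dcn (r = 0.991), Igdcc4 (0.989) and Pi16 (0.986). Dcn encodes decorin, a small matrix proteoglycan, and Pi16 marks fibroblast-like precursors of fat tissue. Dcn fell from 83.5 CPM on col1 to 26.6 CPM on col1-ACLP (log2 fold change -1.65, adjusted p = 3.65e-13 by edgeR) and stood at 32.7 CPM with the inhibitor. For Pparg they were Crim1 (0.969), Arfgef2 (0.969) and Camk2d (0.968), for Cebpb Ssbp3 (0.968), Cul7 (0.957) and Sun2 (0.937). For Klf15 they were Rrp9 (0.956) and Srm (0.945), known for ribosomal RNA processing and spermidine synthesis, and Lrrc59 (0.929). Within groups the r was 0.672 to 0.81 for the genes nearest Ebf1 and 0.812 to 0.901 for those nearest Klf15. For those nearest Pparg it was 0.68 to 0.871, and for those nearest Cebpb 0.879 to 0.948. All were picked for a high r over the same 12 libraries, so the values within groups are not independent of that choice.

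Relatives of the factors and their partners were followed as lists, whose shares stand beside 9.52% higher and 8.41% lower among all genes on col1-ACLP, and 4.6% and 4.54% with the inhibitor. Of 7 tested C/EBP family genes and dimer partners, 1 was higher and 1 lower on col1-ACLP (14.3% each). The higher one was Atf4, a dimer partner and regulator of amino acid genes (272 ± 15.8 and 386 ± 18.4 CPM, log2 fold change 0.50, adjusted p = 2.18e-08 by edgeR), and the lower one was Cebpb. With the inhibitor Atf4 was at 342 ± 13.2 CPM, and it was the 1 gene of this list called against col1. In the EBF and ZFP423 families, 5 were tested, and 1 was higher and 2 were lower on col1-ACLP. Zfp521, a relative of ZFP423 that represses Ebf1 and holds back fat cell formation, rose on col1-ACLP by a log2 fold change of 0.35 (230 ± 3.33 to 293 ± 17.1 CPM, adjusted p = 2.45e-06) and with the inhibitor by 0.23 (adjusted p = 0.00107). Ebf3 was lower on col1-ACLP, like Ebf1 (log2 fold change -0.38, adjusted p = 0.000692). Of 14 tested KLF genes, 2 were higher (14.3%, Klf15 and Klf7) and 1 was lower (7.14%, Klf11) on col1-ACLP, and 2 were lower with the inhibitor (14.3%, Klf11 and Klf12). With library size alone 1 KLF gene was higher and 1 lower on col1-ACLP, as Klf7 was no longer called. The call of Klf12 (adjusted p = 0.0453) remained in 7 of 20 alternative settings. Klf7, which represses fat cell formation, had a log2 fold change of 0.26 (adjusted p = 0.0154). Klf14 and Klf17 stayed under 0.1 CPM in every library.

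Among 16 tested PPAR and RXR receptors and their coregulators, 2 were higher (12.5%) and 1 lower (6.25%) in each comparison with col1, close to the shares of all genes on col1-ACLP. The lower gene was Pparg. With library size alone 2 were higher and 2 lower on col1-ACLP. Rxra, the receptor with which PPARg pairs on DNA, was among the higher ones on col1-ACLP (105 ± 2.08 and 128 ± 5.24 CPM, log2 fold change 0.28, adjusted p = 0.000249 by edgeR). Ppara and Rxrg were under 0.1 CPM throughout. Pparg and its partner Rxra moved in opposite directions on col1-ACLP.

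Other regulators of fat cell formation were called in both directions. Of 21 tested pro-adipogenic regulators, 6 were higher (28.6%) and 4 lower (19.0%) on col1-ACLP, with a median log2 fold change of -0.029 beside -0.0099 over all genes. This split depended on the scaling: with library size alone 3 were higher and 6 lower. Igf1r, the receptor through which IGF1 and insulin promote differentiation, rose by a log2 fold change of 0.38 (adjusted p = 4.03e-06 by edgeR), Bmp4 by 0.31 (adjusted p = 0.000707) and Srebf1, a regulator of lipid synthesis, by 0.29 (adjusted p = 0.00165). Nr4a1 and Egr2, both immediate early genes, were lower (-0.77, adjusted p = 0.000188, and -0.73, adjusted p = 0.000857). Against col1, the group with the inhibitor had 3 higher and 3 lower (14.3% each). The count of 3 lower fell to 0 without col1 replicate 3 or without col1-ACLP+SB replicate 1, and to 1 without col1 replicate 1, col1 replicate 4 or col1-ACLP+SB replicate 3. Of 35 tested anti-adipogenic regulators, 5 were higher (14.3%) and 6 lower (17.1%) on col1-ACLP, with a median of -0.041. Jag1, a Notch ligand, rose from 220 ± 9.18 to 421 ± 40.3 CPM (log2 fold change 0.94, adjusted p = 1.28e-11). It was the 1 gene of this list called between the ACLP groups, at 325 ± 25.1 CPM with the inhibitor (-0.37, adjusted p = 0.0016). Ctnnb1, which encodes beta-catenin of the Wnt pathway, rose by 0.40 (adjusted p = 2.67e-08) and Bhlhe40 by 0.73 (adjusted p = 3.08e-05). Mgp, an inhibitor of BMP signalling, was lower (-0.94, adjusted p = 5.45e-08), as was Smad3 (-0.35, adjusted p = 1.33e-05). With the inhibitor 3 of this list were higher (8.57%) and 2 lower (5.71%) than on col1.

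Genes that respond to the glucocorticoid receptor, as Klf15 does, were split. Of 16 tested, 4 were higher (25.0%) and 6 lower (37.5%) on col1-ACLP, beside 9.52% and 8.41% of all genes. Besides Klf15, Tsc22d3, which encodes the glucocorticoid-induced leucine zipper, rose by a log2 fold change of 0.53 (adjusted p = 0.00054 by edgeR), and Gadd45b by 0.50 (adjusted p = 1.09e-06). Lcn2 was lower (-0.84, adjusted p = 2.29e-08), and so were Angptl4 (-0.83, adjusted p = 4.84e-08) and Pdk4 (-1.21, adjusted p = 4.5e-07). With the inhibitor 2 were higher (12.5%) and 4 lower (25.0%) than on col1. Lcn2 was 0.32 higher on the log2 scale with the inhibitor than on col1-ACLP (adjusted p = 0.0478), a call that remained in 9 of 20 alternative settings. Zbtb16 stayed under 0.1 CPM.

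Targets of PPARg and other fat cell genes were tested in 20 of 33 cases, and 5 were higher (25.0%) and 7 lower (35.0%) on col1-ACLP, beside 9.52% and 8.41% of all genes. With library size alone these were 4 and 9. Plin4, a coat protein of lipid droplets, fell from 348 ± 21.1 to 166 ± 10.1 CPM (log2 fold change -1.07, adjusted p = 1.96e-13 by edgeR). Pdk4, a brake on glucose oxidation, Angptl4, an inhibitor of lipoprotein lipase, and Cpt1a, the gate of fatty acid oxidation (-0.53, adjusted p = 1.41e-07), were lower as well. Scd1, the desaturase of fatty acid synthesis, was higher (0.52, adjusted p = 6.81e-07). With the inhibitor 1 was higher (5.0%) and 6 were lower (30.0%) than on col1. Over the alternative settings the count higher ran from 1 to 3 and the count lower from 5 to 6. Between the ACLP groups Plin4 was higher with the inhibitor (0.27, adjusted p = 0.00915), and Scd1 and Acaca, both enzymes of fatty acid synthesis, were lower (-0.26, adjusted p = 0.0345, and -0.28, adjusted p = 0.0157). These calls remained in 19, 13 and 15 of 20 alternative settings. Fabp4, the classical fat cell target of PPARg, was low at 1.73 ± 0.638 CPM on col1, 0.656 ± 0.267 CPM on col1-ACLP and 0.436 ± 0.23 CPM with the inhibitor. Its log2 fold change against col1 was -1.39 on col1-ACLP (adjusted p = 0.0577, not called) and -1.97 with the inhibitor (adjusted p = 0.0133). Plin1, Cidec, Cfd, Pck1 and Ucp1 were under 0.1 CPM in every library.

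Among 19 tested genes of fat cell precursors, a list that also holds Pparg, Ebf2 and Zfp423, 2 were higher (10.5%) and 5 lower (26.3%) on col1-ACLP. With the inhibitor 6 were lower (31.6%) than on col1 and 0 higher by edgeR, DESeq2 and limma-voom (2 higher at an unadjusted p-value under 0.05 in edgeR). Pi16 fell by a log2 fold change of 1.06 (73.5 ± 7.74 to 35.3 ± 2.5 CPM, adjusted p = 7.91e-11 by edgeR). For Pdgfra, the receptor that marks these precursors, the values were 420 ± 23.9 and 248 ± 14.6 CPM (log2 fold change -0.76, adjusted p = 1.98e-10), and 278 ± 22.3 CPM with the inhibitor. Itgb1, which encodes the integrin subunit b1, rose by 0.18 (adjusted p = 0.00261). Ly6a, which encodes the stem cell antigen SCA1, had similar means without and with ACLP (216 ± 12.8 and 218 ± 5.47 CPM, adjusted p = 0.923), and it was lower with the inhibitor than on col1-ACLP (184 ± 14.1 CPM, -0.24, adjusted p = 0.0243), a call that remained in 14 of 20 alternative settings.

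**Figure D5:**
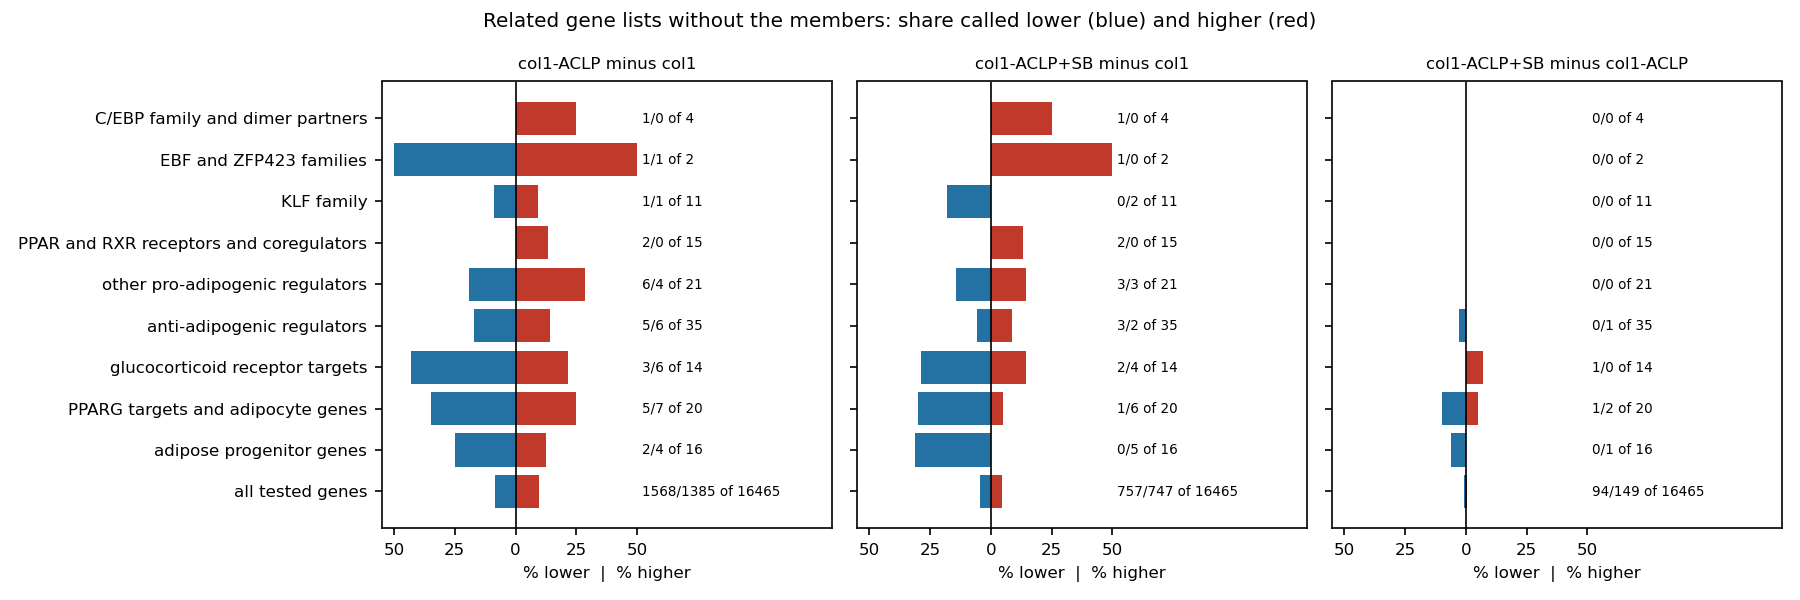
Share of tested genes called lower (blue, to the left) and higher (red, to the right) in 9 related lists without the 10 factors, and in all 16465 tested genes, for the 3 contrasts (adjusted p-value under 0.05 by edgeR). The counts higher and lower, and the number tested, stand beside each bar. In the list of fat cell genes 5 were higher and 7 lower on col1-ACLP.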

How the data were processed

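Poly(A) RNA of 10T1/2 cells was sequenced in 12 libraries, 4 per group. The authors mapped reads with HISAT2 and deposited raw read counts per gene, without normalization, with gene lengths in bases. The study's methods name GRCm39 and the submitters' processing notes name mm10, and the gene positions in the table are those of GRCm39. The counting tool and its strand setting are not given in the sources used here. The 10 members and the lists were chosen with earlier results of these data known.

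Counts were analysed in R 4.3.3 with edgeR 4.0.16: filterByExpr (16465 genes kept, 40283 dropped), TMM factors from 0.966 to 1.02, and the quasi-likelihood test (glmQLFit, glmQLFTest) on all 12 libraries with group as the only term, with Benjamini-Hochberg adjustment. The common dispersion had a square root of 0.153. Counts of replicates varied beyond sampling noise in all 18 pairs (chi-square per degree of freedom 7.49 to 19.7), so each counts as 1 sample. Same-numbered libraries of different groups did not deviate together (r from -0.037 to 0.036). The design threshold of 0.58 on the log2 scale follows the study, which used DESeq2. In a test on simulated counts, the bar first set for genes changed 2-fold was missed through genes at low levels and was replaced by one for better expressed genes, so a change at a low level can be missed.

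Genes named were the 10 members, from each list up to 5 called genes with the smallest adjusted p-value plus genes taken as defining a list that stayed under 0.1 CPM, for each called member the 3 genes with the highest correlation, and genes that overlap a member. Fabp4, Acaca, Ly6a, Klf12, Stat5a and the marker genes were named after their values were seen. Alternatives were edgeR RLE, library size alone, no filter, a mean of at least 10 counts, the 2 groups alone, a replicate block, DESeq2 1.42.0, limma-voom (limma 3.58.1) and each library left out. The result for 1 list gene is not reported here.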

Additional observations from a re-analysis of the deposited data

Results flagged for a closer look

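In 1 of 30 sets of 4 libraries (10 factors in 3 groups), 1 library lay far from the others for the distance between them. Pparg on col1-ACLP was at 19.6 CPM in replicate 3 and at 16.7 to 17.0 CPM in the other libraries, a gap of 0.903 of the range of the group, above Dixon's 95% critical value for 4 samples. Chance flags about 1 in 20 such sets. The library with the high value still lay under the lowest col1 library (25.6 CPM).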

How the results depend on the processing

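Over 20 alternatives, the 4 calls between col1-ACLP and col1 (Pparg, Ebf1, Cebpb, Klf15) and the 2 between col1-ACLP+SB and col1 (Pparg, Ebf1) kept their direction and an adjusted p-value under 0.05 in each. Of 600 log2 fold changes of the factors, 575 kept direction and side of the threshold, 24 of factors that were not called changed sign, and 1 gained a call. Among the 575, the DESeq2 estimates of Klf15 and Ebf2 between the ACLP groups kept direction but had no adjusted p-value. The call gained was Klf15 on col1-ACLP+SB against col1, so that 1 factor was higher without col1-ACLP+SB replicate 4, against 0 with all libraries (range 0 to 1). Factors with non-overlapping ACLP groups numbered 1 to 2 with 1 library left out, as Cebpb (without col1-ACLP+SB replicate 1) or Klf15 (without replicate 2) joined Ebf1. Sign changes, given as the range of log2 fold changes with 1 library left out, were found between col1-ACLP and col1 for Cebpd (-0.055 to 0.022), Ebf2 (-0.27 to 0.20) and Klf4 (-0.053 to 0.056). Between col1-ACLP+SB and col1 Klf9 ran from -0.029 to 0.12, and between both ACLP groups Cebpd ran from -0.078 to 0.015, Zfp423 from -0.21 to 0.17 and Klf4 from -0.12 to 0.0092. Ebf2 was at 0.017 with the replicate block and at 0.0032 with limma-voom on col1-ACLP, Klf4 at -0.043 with library size alone and at -0.00079 with limma-voom, and Zfp423 at 0.0023 between the ACLP groups with library size alone. Among factors that were not called and kept their sign, 1 library left out moved the estimate by over 1.5 times in several cases. As examples, between the ACLP groups Cebpb ran from 0.11 to 0.23, Ebf1 from 0.077 to 0.15 and Klf15 from -0.996 to -0.46, and with the inhibitor against col1 Cebpa ran from -0.22 to -0.078. The cause was not tested. With the replicate block Klf15 was at 1.94 on col1-ACLP (adjusted p = 0.0014 by edgeR) and no call of a factor changed. Library numbers did not pair the libraries. Among all genes, the 94 higher and 149 lower between the ACLP groups became 180 and 248 with no filter, 225 and 326 with DESeq2, 61 and 116 with the replicate block, and 32 to 116 and 66 to 172 with 1 library left out. The 54 counts over lists differed by at most 3 genes, and 104 of their values moved by more than 1.5 times. Klf12 and Stat5a, lower with the inhibitor than on col1, remained called in 7 and 8 of 20 settings. Klf7, higher on col1-ACLP, remained in 16, and Rxra with the inhibitor and Fabp4 in 19. Klf15, Ebf2 and Zfp423 had 16 to 127 counts per library, and the SD between replicates exceeded counting error in each on col1.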
